A study of Homo sapiens with 6 samples.

Results

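Osteopontin, encoded by SPP1, and 7 genes for its cell-surface receptors were examined across 6 libraries of 786-O cells, an established line from a human clear cell renal cell carcinoma that lacks functional VHL. The 8 genes were taken by symbol from a table of 25992 genes. SPP1 was selected on its measured level, which was higher with copper in these same libraries, so its copper difference is described and not tested. CD44, ITGAV, ITGA4, ITGA5, ITGB1, ITGB3 and ITGB5 were taken because their products bind osteopontin, whatever their levels. They were chosen with earlier results of these data known. The copper contrast was tested for those with enough counts. The copper group was 3 libraries (copper replicates 1, 2 and 3) of wild type 786-O adapted to copper given as CuSO4 bound to serum proteins. The control group was 3 libraries of the same line whose serum was handled alike with no copper added. The series text gives 30 uM copper and the sample labels read 30, 31 and 32 uM for replicates 1, 2 and 3. They were treated as 1 group. Nothing in the labels says how long the adaptation lasted or whether the libraries came from separate cultures, so p-values measure the spread between these libraries, which may be technical. A single line was used, and since RNA was taken from whole cultures, fewer cells with a transcript and less of it per cell cannot be told apart.

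Osteopontin is a secreted, heavily phosphorylated glycoprotein of bone matrix, urine and many carcinomas, and renal tubular cells make it. An Arg-Gly-Asp sequence in its middle is read by integrins that pair the alpha v chain (ITGAV) with beta 1, beta 3 or beta 5, and by the alpha 5 beta 1 pair. The stretch just after it, laid bare by thrombin, is read by alpha 4 beta 1 and alpha 9 beta 1. CD44, better known as the hyaluronan receptor, is a receptor of another class for which osteopontin is also a ligand.

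The coding stretch that gives osteopontin its integrin contact is shown because all the integrin members below are read against it. It lies in exon 6 of 7 of transcript SPP1-203 in GENCODE 29 (GRCh38), chr4:87981715-87981771 on the plus strand. It covers codons 153 to 171 of the 314-residue product, and capitals mark the Arg-Gly-Asp codons, 159 to 161. The 4 coding transcripts of SPP1 in the basic annotation, which code for 287 to 314 residues, all hold these codons once.
SPP1 integrin-binding stretch: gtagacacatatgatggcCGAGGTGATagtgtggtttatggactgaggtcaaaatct

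The region before SPP1 is shown because SPP1 had the largest log2 fold change of the 7 members fitted. It is taken from the RefSeq promoter table (GRCh38.p14), chr4:87975464-87975649 on the plus strand, and ends just before the first base of the gene in the deposited table. Motifs were searched on both strands in the 250 bases before the RefSeq start at 87975714, and capitals mark their matches.
SPP1 upstream region: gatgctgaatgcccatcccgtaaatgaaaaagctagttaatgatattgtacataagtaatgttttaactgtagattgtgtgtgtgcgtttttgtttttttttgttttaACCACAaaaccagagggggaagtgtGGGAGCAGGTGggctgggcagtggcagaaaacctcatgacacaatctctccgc

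The first capitals are the RUNX core ACCACA, at -142 from the RefSeq start, which 11.0% of the 35116 promoters in the table hold in a window of the same length. The second run joins a match to the metal response element core TGCNCNC on the minus strand at -117, a core present in 49.1% of promoters, and an E-box CANNTG at -112, present in 61.8%. The 2 matches overlap. The letters of the antioxidant response element core TGACNNNGC, the AP-1 site TGANTCA, the hypoxia response element core ACGTG and the TATA box TATAAA were not in this window. These letters are in the windows of 10.9%, 6.57%, 18.5% and 10.7% of promoters. RefSeq promoters were found for 7 of the 8 genes, ITGB3 being the one without an entry. Among the receptors, the antioxidant core occurred in a window of CD44, of ITGB1 and of ITGB5, and the metal response core in windows of CD44, ITGAV, ITGB5 and ITGA5. The other receptor matches were the hypoxia core in CD44, the TATA box in ITGB1 and the E-box in ITGAV, ITGB5 and ITGA5. ITGAV and ITGB1 had 2 windows each and ITGB5 had 3, which gives more room for a match. A match is a run of letters and no evidence of binding.

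The libraries held 16301772 to 25079913 counts, with the copper libraries at 16301772 to 18189469 and the control libraries at 19219090 to 25079913. Replicate 3 stood apart in both groups. In chi-square comparisons of counts the statistic per degree of freedom was 5.55 between copper replicates 1 and 2 and at least 57.8 between either and copper replicate 3. In control it was 5.04 between replicates 1 and 2 and at least 19.8 against replicate 3. Across all genes, edgeR's quasi-likelihood test of copper against control called 0 of 12944 (adjusted p under 0.05), and 455 (3.52%) had an unadjusted p under 0.05. With the replicate number as a block it called 22 (0.17%), with 8.41% at an unadjusted p under 0.05, and DESeq2 called 27 (0.209%). Of the 12 kidney carcinoma markers, 11 passed the filter. VIM averaged 3130 CPM (library-scaled counts) in copper and 3121 in control. PAX8 averaged 133 CPM in copper and 139 in control, while CA9, a marker of most tumours of this type, was near 0 at 0.0586 and 0.0676 CPM. Of the 11, 3 log2 fold changes were positive and 8 negative. KRT19 and PAX2, 2 of the 11, had an unadjusted p under 0.05 by edgeR and were higher in copper without overlap. Of all tested genes, 5.45% were higher in copper without overlap. KRT19, a simple epithelial keratin, was at 35.4, 35.5 and 37.7 CPM in copper and 20.6, 22.2 and 16.1 CPM in control replicates 1, 2 and 3. Its log2 fold change was 0.88 (SE 0.13), and it passed with the replicate block (adjusted p 0.0464) and by DESeq2 (3.83e-05) but not in edgeR without the block (0.24). PAX2, a renal lineage factor, averaged 8.61 CPM in copper and 6.72 in control, with an adjusted p of 1.00 by edgeR. The sum over the list was 4743 to 5542 CPM in copper and 5105 to 5276 in control, and the part of these markers in the SPP1 difference was not tested.

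Macrophages and osteoblasts also make osteopontin, and their markers were few. Of 12 macrophage markers, 10 averaged under 1 CPM, among them PTPRC at 0.133 in copper and 0.0792 in control. The exceptions were CSF1R and MSR1. The sum over the macrophage list was 23.8 to 29.6 CPM in copper and 25.1 to 31.3 CPM in control. Of 6 osteoblast markers, PHEX alone passed the filter, and the sum was 3.76 to 5.99 CPM in copper and 3.28 to 4.77 in control. The T cell list summed to at most 0.432 CPM and the endothelial list to at most 2.57 CPM in any library.

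SPP1 (Entrez 6696; chromosome 4, 87975650 to 87983411) was higher in all 3 copper libraries than in any control library. Scaled to library size, its level was 176, 199 and 172 CPM in copper replicates 1, 2 and 3 and 108, 110 and 110 CPM in control replicates 1, 2 and 3. The control libraries were tightly grouped, the copper libraries a little less so, and the lowest copper value was 1.56 times the highest control value. Raw counts were 2887, 3541 and 3192 in copper and 2674, 2253 and 2094 in control. The means were 182 ± 14.3 CPM in copper and 109 ± 1.51 CPM in control (SD, n = 3 each), and the fitted log2 fold change was 0.74, or 1.67-fold. In same-numbered pairs the log2 difference was 0.71, 0.84 and 0.65 for replicates 1, 2 and 3, so replicate 3 did not depart from the others. The fold change ranked 100 from the top among the 12944 tested genes. SPP1 was also one of the steadier genes within groups: its SD of log2 CPM was 0.08, below that of all but 11.2% of tested genes, whose median was 0.18. These values are those for which the gene was chosen and support nothing further.

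**Figure D1:**
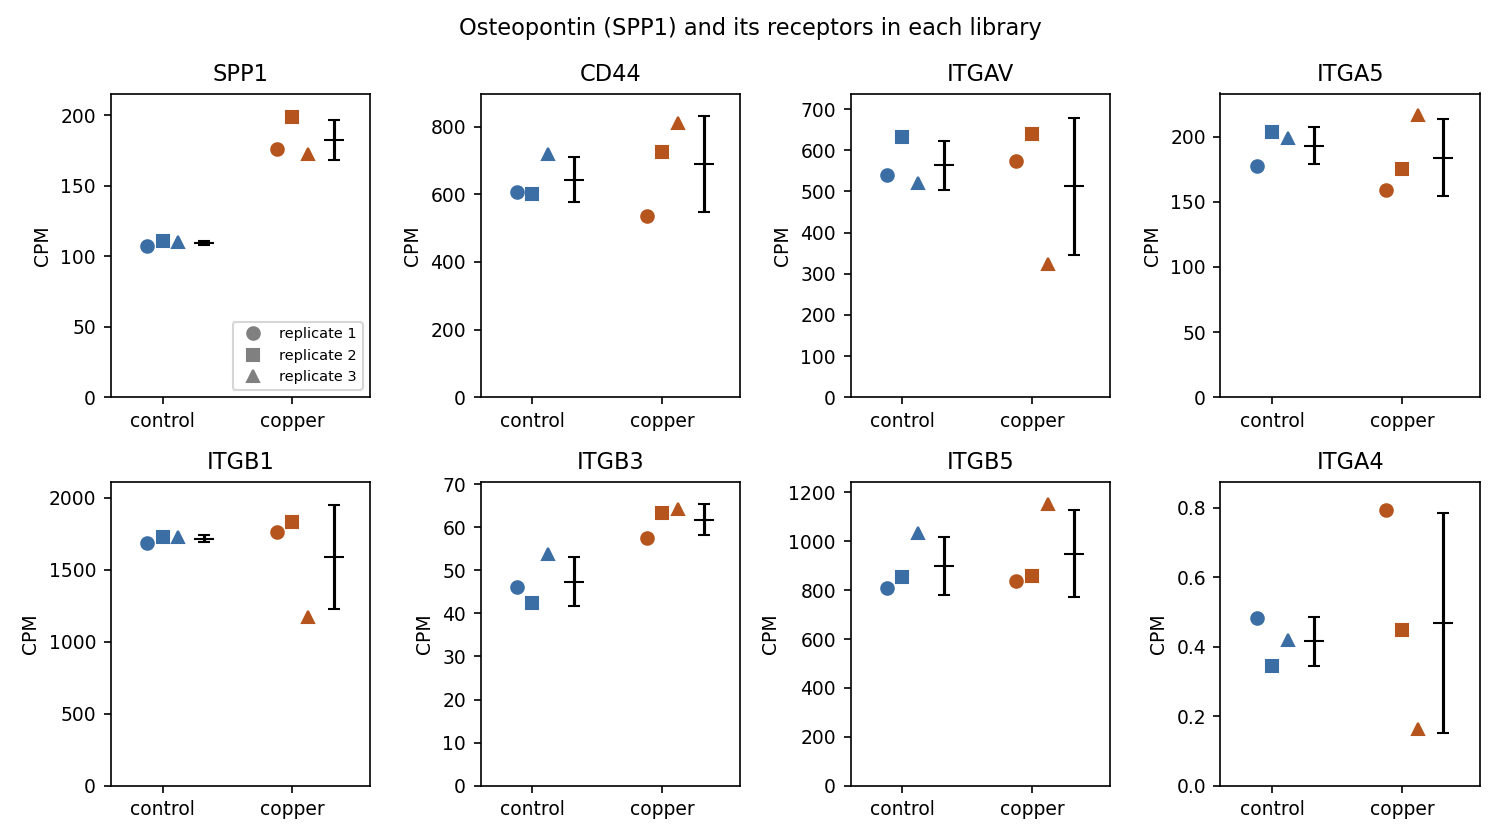
Level in CPM (vertical axes, each from 0) of the 8 genes in each library, control in blue and copper in orange, with the marker shape giving the replicate and the black bar the mean ± SD of 3 libraries. SPP1 lies at 108 to 110 CPM in control and 172 to 199 CPM in copper, ITGB3 also shows no overlap, and copper replicate 3 (triangle) lies low for ITGAV and ITGB1.

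Of the 7 receptor genes, 6 had enough counts to be tested, and none was called between copper and control. By edgeR's quasi-likelihood test 0 of 6 had an adjusted p under 0.05, where the share over all genes was 0%. By DESeq2, limma-voom and the fit with the replicate block it was also 0 of 6. At an unadjusted p under 0.05 there was 1 of 6, ITGB3, where 3.52% of all tested genes passed. Their log2 fold changes were 3 positive and 3 negative with a median of 0.0042, and the median of all tested genes was 0.0052. ITGB3 was the only one whose groups did not overlap, where 10.8% of all tested genes had groups that did not and 5.45% were higher in copper without overlap.

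ITGB3 (Entrez 3690; chromosome 17, 47253827 to 47313743) encodes beta 3, the chain that with alpha v forms the classical osteopontin receptor of osteoclasts. Its level was 57.6, 63.3 and 64.3 CPM in copper and 46.2, 42.3 and 53.7 CPM in control replicates 1, 2 and 3. All copper values lay above all control values, though the nearest were only 1.07-fold apart. Copper libraries averaged 61.7 ± 3.61 CPM and control libraries 47.4 ± 5.79 CPM (SD, n = 3). The fitted log2 fold change was 0.38 (SE 0.12, 95% interval 0.06 to 0.70), with an adjusted p of 1.00 by edgeR and 0.32 with the replicate block. It was positive in all 3 pairs, at 0.31, 0.57 and 0.26, and 34.7% of tested genes had 1 sign in all pairs. In replicates 1 and 2 alone edgeR called it (log2 fold change 0.45, adjusted p 0.0237), where 111 of 12966 tested genes were called. The gene EFCAB13-DT overlaps the ITGB3 range on the other strand. Whether counting used strand is not given in the sources used here, so reads of the pair may not have been told apart.

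ITGAV (Entrez 3685; chromosome 2, 186600205 to 186680902) encodes alpha v, the chain shared by most Arg-Gly-Asp receptors of osteopontin. Its level was 573, 640 and 324 CPM in copper and 541, 632 and 520 CPM in control replicates 1, 2 and 3. Copper replicate 3 was the one low library, at 0.558 times the mean of the other 5, and the groups overlapped. The fitted log2 difference was -0.14 (SE 0.24, 95% interval -0.80 to 0.52), with an adjusted p of 1.00 by edgeR. In the pairs the log2 difference was 0.08 and 0.02 for replicates 1 and 2 and -0.68 for replicate 3. Without copper replicate 3 the fitted value was 0.10.

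ITGB1 (Entrez 3688; chromosome 10, 32900318 to 32957894) encodes beta 1, the common partner of alpha v, alpha 4 and alpha 5. Its level was 1762, 1829 and 1170 CPM in copper and 1685, 1729 and 1727 CPM in control replicates 1, 2 and 3. The 3 control libraries and the first 2 copper libraries were close together and copper replicate 3 was again low, at 0.67 times the mean of the rest. In the fit the log2 fold change was -0.11 (SE 0.17, 95% interval -0.59 to 0.36; adjusted p 1.00 by edgeR), and without copper replicate 3 it was 0.07. The pairs gave 0.06, 0.08 and -0.56.

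ITGB5 (Entrez 3693; chromosome 3, 124761949 to 124901411) encodes beta 5, a partner of alpha v alone. Its level was 838, 858 and 1153 CPM in copper and 808, 855 and 1035 CPM in control replicates 1, 2 and 3. Here replicate 3 was the high library in both groups, and the groups overlapped. The log2 fold change was 0.08 (SE 0.16, 95% interval -0.37 to 0.52; adjusted p 1.00 by edgeR), with pair differences of 0.05, 0.01 and 0.16. Without copper replicate 3 it was -0.09.

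ITGA5 (Entrez 3678; chromosome 12, 54395261 to 54419266) encodes alpha 5, which pairs with beta 1 and is best known as a fibronectin receptor. Its level was 159, 175 and 217 CPM in copper and 177, 203 and 199 CPM in control replicates 1, 2 and 3. Copper replicates 1 and 2 were the lowest of the 6 libraries and copper replicate 3 the highest. By the fit the log2 fold change was -0.07 (SE 0.13, 95% interval -0.44 to 0.30; adjusted p 1.00 by edgeR), with pair differences of -0.15, -0.21 and 0.13. Without copper replicate 1 it was 0.02. Its range overlaps LOC102724050 on the other strand, with the same limit as for ITGB3.

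CD44 (Entrez 960; chromosome 11, 35139171 to 35232402) was high in every library. Its level was 535, 724 and 812 CPM in copper and 608, 601 and 719 CPM in control replicates 1, 2 and 3. The copper libraries held both the lowest and the highest value. Its log2 fold change was 0.10 (SE 0.17, 95% interval -0.36 to 0.56; adjusted p 1.00 by edgeR), with pair differences of -0.18, 0.27 and 0.17, and it was -0.03 without copper replicate 3. CD44 is made in standard and variant splice forms with different affinities for ligands, and a count per gene does not separate them.

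ITGA4 (Entrez 3676; chromosome 2, 181456892 to 181476218), whose alpha 4 chain is best known on leukocytes and reads the thrombin-exposed site, was close to absent. Its counts were 13, 8 and 3 in copper and 12, 7 and 8 in control replicates 1, 2 and 3, or 0.162 to 0.792 CPM, and it did not pass the filter. Its range in the deposited table covers 23.6% of the RefSeq gene, ending 62722 bases before the RefSeq end, so part of its reads may not have been counted. The ranges of the other members cover at least 88.8% of the RefSeq gene.

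**Figure D2:**
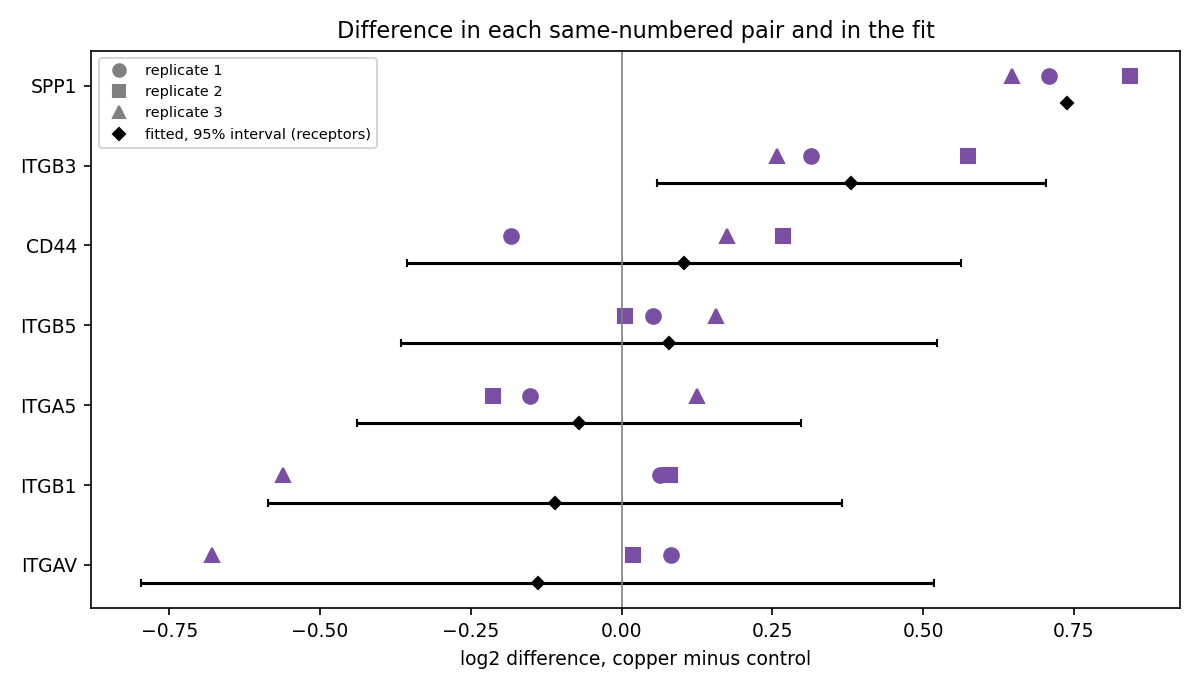
Log2 difference, copper minus control (horizontal axis), for SPP1 and the 6 tested receptors, with purple markers for each same-numbered pair and black diamonds for the fit; bars are 95% intervals on 4 residual degrees of freedom and are drawn for the receptors only. SPP1 lies at 0.65 to 0.84 in all pairs, the ITGB3 pairs lie at 0.26 to 0.57, and replicate 3 of ITGAV and ITGB1 lies at -0.68 and -0.56 while replicates 1 and 2 lie near 0.

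In copper replicate 3, ITGAV and ITGB1 lay below the other copper libraries, CD44, ITGB5 and ITGA5 lay above them, and ITGB3 and SPP1 stayed near them. Against the mean of replicates 1 and 2 of the same group, copper replicate 3 differed on the log2 scale by -0.90 for ITGAV and -0.62 for ITGB1, and by 0.38 for CD44, 0.44 for ITGB5 and 0.37 for ITGA5. Among all tested genes these differences stood at the percentiles 2.29 for ITGAV, 8.85 for ITGB1, 79.6 for CD44, 83.2 for ITGB5 and 79.0 for ITGA5. For ITGB3 and SPP1 the difference was 0.09 and -0.12. In control replicate 3 the same quantity was -0.17 for ITGAV, 0.02 for ITGB1, 0.25 for CD44, 0.32 for ITGB5, 0.07 for ITGA5, 0.28 for ITGB3 and 0.01 for SPP1. ITGAV, ITGB1 and ITGA5 had a pair difference in replicate 3 opposite in sign to that of replicates 1 and 2, a pattern found in 29.8% of tested genes. What sets replicate 3 apart was not tested.

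Compared per kilobase of exon, beta 1 was the most abundant of the 8 transcripts and alpha 4 the least in every library. The mean over 6 libraries was 420 CPM per kilobase for ITGB1, 211 for ITGB5, 109 for CD44, 88.9 for SPP1, 74.7 for ITGAV, 42.4 for ITGA5, 12.4 for ITGB3 and 0.0958 for ITGA4. ITGB1, ITGB5, ITGB3 and ITGA4 kept their places in all 6 libraries. The order of the others was the same in the 3 control libraries, CD44 above ITGAV, SPP1 and ITGA5, and differed in copper. Within copper, SPP1 and CD44 changed places between libraries, as did ITGAV and ITGA5, so these pairs are not parted beyond the spread of the copper libraries. SPP1 was below CD44 and ITGAV in all 3 control libraries, at 0.567 to 0.683 times CD44. In copper it was above ITGAV in all 3 libraries, and at 1.22, 1.02 and 0.789 times CD44 in replicates 1, 2 and 3. With the longest transcript as the length, SPP1 fell below CD44 in copper replicate 2 too. SPP1 stood above 95.1% of the tested genes with a known length, ITGB1 above 99.4% and ITGB3 above 62.5%.

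Of beta 1, beta 3 and beta 5, the beta chains among the 8 genes, beta 3 was the least abundant. ITGB1 exceeded ITGB3 by 36.0 to 45.7 times per kilobase in control, and by 34.2, 32.3 and 20.3 times in copper replicates 1, 2 and 3. ITGB5 was 0.431, 0.444 and 0.539 times ITGB1 in control replicates 1, 2 and 3 and 0.427, 0.422 and 0.886 times ITGB1 in copper. The last value is copper replicate 3, where ITGB1 was low and ITGB5 high. ITGAV exceeded ITGA5 by 1.61 to 2.25 times in 5 libraries and was 0.922 times ITGA5 in copper replicate 3. RNA levels do not give the amounts of paired protein at the surface.

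**Figure D3:**
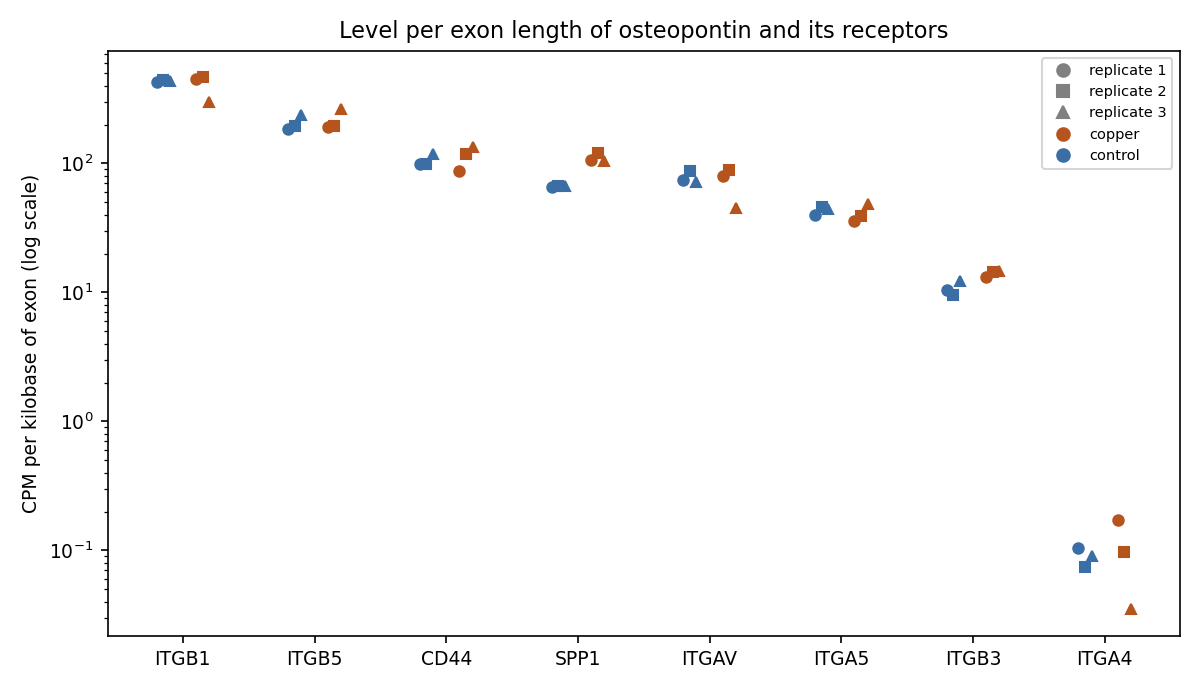
Level in CPM per kilobase of exon (vertical axis, log scale) of the 8 genes ordered by their mean, control in blue and copper in orange, with the marker shape giving the replicate. ITGB1 (mean 420) leads and ITGA4 (0.0958) is lowest, SPP1 lies above ITGAV in copper and below it in control, and ITGB3 averages 12.4.

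Other integrin chains known to bind osteopontin were mostly scarce. Of ITGB6, ITGB7, ITGB8, ITGA8 and ITGA9, 3 passed the filter, 0 were called by edgeR, and the 3 log2 fold changes were positive with a median of 0.10. ITGB8 (Entrez 3696), whose beta 8 chain pairs with alpha v and is best known for activating latent TGF-beta, was the most abundant at 206, 186 and 69.7 CPM in copper and 166, 148 and 109 CPM in control replicates 1, 2 and 3. Replicate 3 was the low library in both groups, and the log2 fold change was 0.13 (SE 0.37). ITGB6, the epithelial partner of alpha v, was at 2.05 to 11.6 CPM and was lowest in replicate 3 of both groups. Its log2 fold change was 0.10 and that of ITGB7 0.06. ITGA9, the other chain for the thrombin-exposed site, had 3 to 8 counts in a library and ITGA8 at most 4.

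Of 15 further integrin chains, 9 were tested and 0 were called, with a median log2 fold change of 0.04. ITGA3, the laminin-binding alpha 3 chain, was the most abundant of them at 148 CPM per kilobase, above ITGAV and ITGA5, with means of 728 ± 119 CPM in copper and 716 ± 66.3 CPM in control (SD, n = 3). ITGAX, a leukocyte chain, had the smallest p of these and averaged 2.48 CPM in copper and 1.24 in control, with overlapping groups and an adjusted p of 1.00 by edgeR.

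Other ligands of the same integrins were as follows. Of 16 listed, 11 were tested, 0 were called, with 4 above 0 and a median log2 fold change of -0.11. CCN1, a matrix-associated ligand of alpha v integrins, led per kilobase at 278 CPM and averaged 612 ± 128 CPM in copper and 660 ± 96.9 CPM in control (SD, n = 3). CCN2 had the smallest p and a log2 fold change of -0.24 (SE 0.13; adjusted p 1.00 by edgeR). The 4 relatives of SPP1 in the family of small integrin-binding glycoproteins of bone and tooth, IBSP, DMP1, DSPP and MEPE, were each under 1 CPM on average and none was tested. IBSP, which lies near SPP1, had at most 2 counts in any library.

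The genes beside SPP1 on chromosome 4 did not share its difference as a group. Of 11 listed neighbours, 9 were tested and 0 were called by edgeR, with 5 positive and 4 negative log2 fold changes and a median of 0.08. ABCG2 (Entrez 9429; chromosome 4, 88090264 to 88159323), a drug and urate efflux pump, had the smallest p. Its level was 4.82, 4.32 and 2.32 CPM in copper and 2.21, 2.21 and 1.47 CPM in control replicates 1, 2 and 3. The groups did not overlap, by a narrow margin, which held for 1 of the 9 tested neighbours and 10.8% of all tested genes. The log2 fold change was 0.92 (SE 0.32, adjusted p 1.00 by edgeR and 0.15 with the replicate block). HSD17B11, the most abundant neighbour per kilobase, was at -0.13 (SE 0.11). The other tested neighbours were at -0.11 for AFF1, 0.72 for HERC5, 0.44 for HERC6, -0.06 for KLHL8, 0.08 for NUDT9, 0.10 for PKD2 and -0.12 for PPM1K. HERC5 was near the floor, with 4 to 19 counts in a library and an SE of 0.51. HERC5, SPARCL1 and HSD17B13 averaged under 1 CPM, and the last 2 did not pass the filter.

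Enzymes that cut, cross-link or otherwise modify osteopontin were measured next. Of 13 listed, 9 were tested and 0 were called by edgeR. All 9 fitted log2 fold changes were positive, with a median of 0.17, where 51.4% of all tested genes were positive. The sign did not hold in every pair. In replicate 1 the difference was -0.34 for ACP5, -0.03 for CTSB, -0.03 for MMP2, -0.03 for PLAU and -0.40 for TGM2. It was above 0 there for CTSD, F2, FAM20C and MMP9. MMP2 was also negative in replicate 2, at -0.10, and F2 was at -0.34 in replicate 3. That left CTSD, FAM20C and MMP9 above 0 in every pair, where 34.7% of all tested genes had 1 sign in all pairs. CTSD, the lysosomal protease cathepsin D, was both the most abundant per kilobase and the one with the smallest p. Its level was 245, 257 and 424 CPM in copper and 205, 219 and 253 CPM in control replicates 1, 2 and 3, the groups overlapped, and copper replicate 3 was the high library. Its log2 fold change was 0.45 (SE 0.22; adjusted p 1.00 by edgeR). Among the 9, the thrombin gene F2 was tested at under 1 CPM in every library, and ACP5 and MMP9 averaged 0.81 and 0.86 CPM over the 6 libraries. The metalloproteases MMP3, MMP7 and MMP12 and the plasminogen gene PLG did not pass the filter.

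Transcription factors linked to SPP1 in other tissues were not called either. Of 19 listed, all 19 were tested, 0 were called, 7 were positive and the median was -0.08. RUNX2, whose family's core lies in the sequence above, averaged 94.3 ± 6.10 CPM in copper and 98.6 ± 10.2 CPM in control (SD, n = 3). In the fit this was -0.06 (SE 0.11) on the log2 scale. It was named for that core after its values were seen. ETS1 had the smallest p. Its level was 287, 345 and 313 CPM in copper and 359, 369 and 440 CPM in control replicates 1, 2 and 3, with every copper value below every control value. Its log2 fold change was -0.31 (SE 0.12; adjusted p 1.00 by edgeR), and 5.35% of all tested genes were lower in copper without overlap. FOSL1, an AP-1 subunit, was the most abundant per kilobase, and its log2 fold change was 0.31 (SE 0.33).

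Inside the cell, integrins are tied to actin by focal adhesion proteins. Of 30 listed, 29 were tested, 0 were called, with 8 above 0 and a median log2 fold change of -0.10. Without overlap of the groups, SRC was higher in copper and CRKL, PTK2 and TLN1 were lower, with a log2 fold change of -0.15 for CRKL, the farthest from 0 of these, and they were named after their values were seen. These are 4 of 29, where 10.8% of all tested genes had groups that did not overlap, 5.45% higher and 5.35% lower in copper. FLNA, the actin cross-linker filamin A, was the most abundant per kilobase, with means of 4440 ± 752 CPM in copper and 4824 ± 917 CPM in control (SD, n = 3). TNS1, a tensin that binds the tails of beta chains, had the smallest p. Its level was 38.8, 54.3 and 64.1 CPM in copper and 61.8, 71.4 and 86.6 CPM in control replicates 1, 2 and 3. Each copper library was below the control of the same number although the groups overlapped, and the log2 fold change was -0.48 (SE 0.20; adjusted p 1.00 by edgeR and 0.15 with the replicate block).

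For CD44, the list held its hyaluronan ligand's enzymes, its membrane anchors and its sheddases, and also ESRP1, ESRP2, SRSF1, HMMR, LYVE1, VCAN and CD74. Of 21, 17 were tested, 0 were called, with 4 above 0 and a median log2 fold change of -0.04. HAS3 (Entrez 3038; chromosome 16, 69107540 to 69117667), a hyaluronan synthase, had the smallest p. Its level was 14.3, 16.6 and 14.8 CPM in copper and 10.3, 10.1 and 11.4 CPM in control replicates 1, 2 and 3. The groups did not overlap, which held for 1 of the 17 tested and 10.8% of all tested genes. The 3 pairs gave 0.45, 0.70 and 0.36, with 0.52 (SE 0.12) in the fit. The adjusted p was 0.92 by edgeR, 0.22 with the replicate block and 0.19 by DESeq2. MSN, the membrane-cytoskeleton linker moesin that binds the CD44 tail, was the most abundant per kilobase, at a log2 fold change of -0.11 (SE 0.12).

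**Figure D4:**
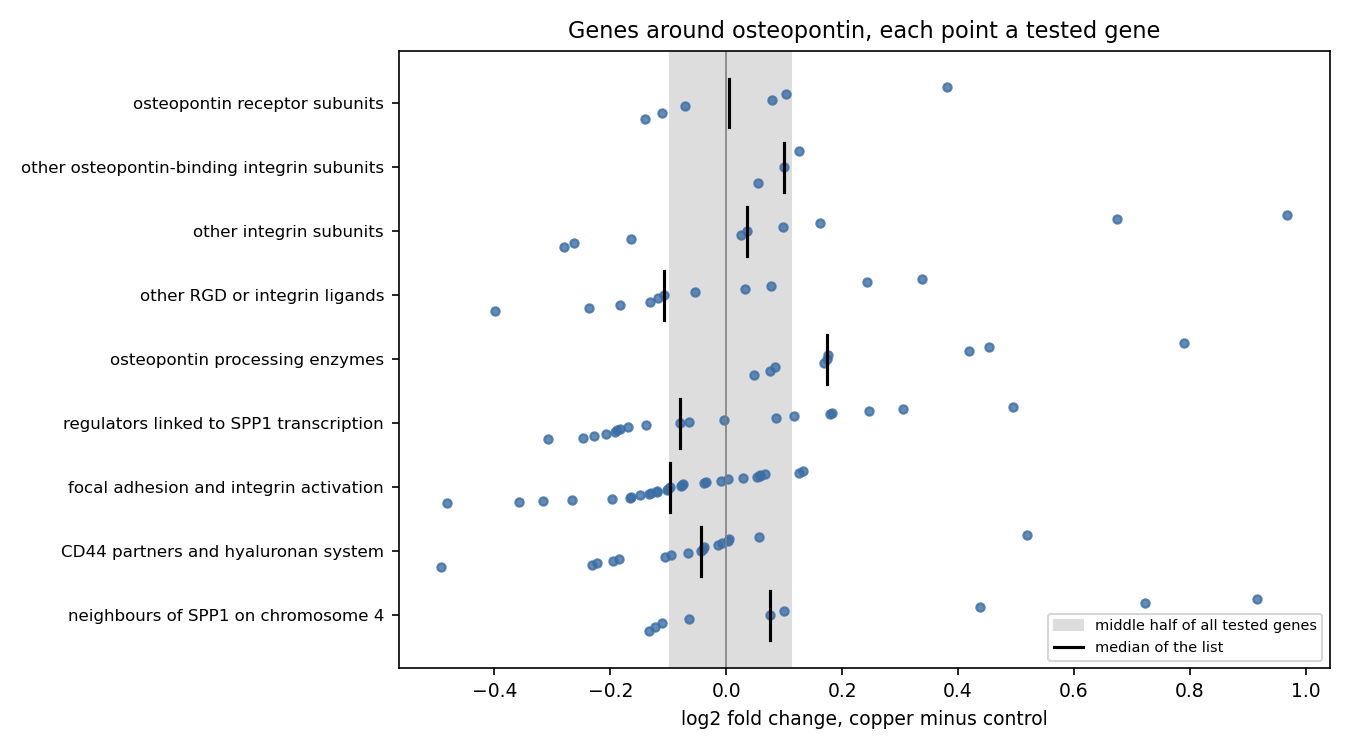
Log2 fold change, copper minus control (horizontal axis), of each tested gene in 9 lists around osteopontin, with the list's median as a black bar and the middle 50% of all tested genes (-0.10 to 0.11) in grey. No gene shown was called by edgeR. The 9 osteopontin processing enzymes lie above 0 in this fit, though not all in every pair, and the focal adhesion genes have a median of -0.10.

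The genes whose pattern was most like that of SPP1 were found by the Pearson correlation of log2 CPM over the 6 libraries, among 10290 genes averaging 5 CPM or more. The 5 highest were IER5 (r = 0.99), BHMT2 (0.98), TRIM55 (0.98), RUVBL1 (0.98) and HAS3 (0.97). In all 5 the groups did not overlap and copper was higher. The log2 fold change was 0.88 for BHMT2, 0.54 for TRIM55, 0.52 for HAS3, 0.20 for IER5 and 0.17 for RUVBL1. The 6 libraries form 2 groups and are those in which SPP1 was chosen, so these values carry the difference between the groups with them.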

How the data were processed

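Raw counts per gene for the 6 total RNA libraries came from a single table that the authors deposited. Per the labels' protocols, libraries were made with a directional NEBNext kit. Per the submitters' processing notes, STAR, FastQC and edgeR were used and the build was GRCh38. How strand, overlapping genes and reads with several matches were treated is not given in the sources used here. Starts in the table count from 0, and 1 was added. The 5 genes without a symbol (0.000814% of counts) were left out.

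Counts were fitted over the whole table in R 4.3.3 with edgeR 4.0.16 (filterByExpr with minimum count 10 and minimum total 15, TMM scaling, robust quasi-likelihood test on group, Benjamini-Hochberg adjustment, called under 0.05, prior count 2). Standard errors were the size of the log2 fold change, refitted with almost no prior count, over the root of F. The 95% intervals used 4 degrees of freedom. CPM used TMM library sizes, and pair differences added 0.5 CPM. Exon lengths were unions over GENCODE 29 basic transcripts, known for 99.2% of tested genes. Alternatives included DESeq2 1.42.0 and limma-voom 3.58.1. The scripts were tested on simulated data.

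Both groups carry replicate numbers 1 to 3. Deviations from the group mean correlated across genes at 0.53, 0.45 and 0.68 for replicates 1, 2 and 3, above the minimum of 0.1 set for pairing. Unmatched numbers 1 and 2 also correlated above that minimum, at 0.37 (copper 1 with control 2) and 0.30 (copper 2 with control 1), and the difference between replicates 1 and 2 correlated at 0.20 between groups. The members and lists were chosen with earlier results of these data known. All members were named, and from each list the gene with the smallest p and that with the highest level per length. Every detected gene of the osteopontin-binding integrin, bone glycoprotein and neighbour lists was named, as were the 5 genes most correlated with SPP1.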

Additional observations from a re-analysis of the deposited data

How the results depend on the processing

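The log2 fold change of SPP1 ranged over the 18 alternatives from 0.668 without copper replicate 2 to 0.781 in replicates 1 and 2 alone. SPP1 was chosen for its rise in these same libraries, so its positive sign throughout is no further evidence. Over the whole table edgeR called 0 genes with the settings reported, 12 when low counts were kept, 22 under the replicate block, 111 in replicates 1 and 2 alone and 912 with the replicate block in replicates 1 and 2 alone, and DESeq2 called 27. Leaving out 1 library gave 0 to 15, with 15 without copper replicate 3. Of the 7 receptors, 1 (ITGB3) was called in replicates 1 and 2 alone, where 111 of 12966 tested genes were called. With the block there it was 2 (ITGB3 and ITGA5), where 912 of 12966 were called. No receptor was called in the other 16 alternatives. In replicates 1 and 2 alone 1 gene was called in each of 3 lists. These were ABCG2 among the 11 neighbours, HAS3 among the 21 CD44 partners and TGFB1 among the 16 other ligands. The replicate block there left 1 residual degree of freedom and called 912 of 12966 genes. It called 1 of 5 other osteopontin-binding chains (ITGB8), 1 of 11 neighbours (ABCG2) and 1 of 13 processing enzymes (CTSD). It also called 5 of 19 transcription factors, 6 of 30 focal adhesion genes, 1 of 21 CD44 partners (HAS3) and 2 of 16 other ligands (TGFB1 and LAMB1). The totals of these lists count listed genes, whereas 12966 counts tested genes. With the settings reported, the genes tested in these lists were 3, 9, 9, 19, 29, 17 and 11, in the order given. The replicate block on all 6 libraries changed no call among the receptors or the lists around osteopontin, and KRT19 was the one marker it called.

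Of 108 receptor results under alternatives, 96 kept direction and call, 3 became called and 9 changed sign. In replicates 1 and 2 alone ITGAV was at 0.0481 and ITGB1 at 0.0723, and with the replicate block there at 0.0497 and 0.0722. Over the 6 fits that each left out 1 library, the log2 fold change ranged from -0.0302 to 0.256 for CD44, -0.334 to 0.1035 for ITGAV, -0.229 to 0.0668 for ITGB1, 0.305 to 0.478 for ITGB3, -0.0852 to 0.191 for ITGB5 and -0.206 to 0.0202 for ITGA5. Without copper replicate 3, CD44, ITGAV, ITGB1 and ITGB5 changed sign, and without copper replicate 1 ITGA5 did. The cause was not tested. The median over all genes stayed within 0.0325 of 0 under every alternative. Levels per kilobase with the longest transcript as the length, an alternative added after seeing the data, moved by less than the spread between libraries. The width of the receptor intervals, such as -0.80 to 0.52 for ITGAV, limits what could have been detected.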
